A study of Rattus norvegicus with 24 samples.

Results

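The cytochrome P450 genes of the rat brain were followed through repeated anaesthesia with halothane or isoflurane. They were taken as every probe set of the deposited table whose only platform gene symbol begins with Cyp and a digit. This gave 84 probe sets for 49 genes, of 8799 rows in the table and 7006 probe sets with 1 gene symbol for 4736 genes. This symbol rule used no measured value, though the P450 genes were chosen as a subject with earlier results of these data known. All 84 symbols were matched by Entrez ID with 0 changed. The names of 50 of the 84 probe sets end in _s_at or _f_at. Whether each probe set reads 1 gene alone, and not related P450 genes too, was not tested. A value given for a gene is that of a probe set assigned to it.

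Total RNA from whole rat brain had been hybridised to 24 arrays in 5 groups. The 12 control arrays came from rats given halothane for 3 min and then perfused with ice-cold saline, so the controls had also met halothane briefly. The other 4 groups of 3 arrays came from rats exposed for 90 min at a time, 2 times a day with 3 h of recovery between, to 0.8% halothane or to 1.0% isoflurane, with 5 exposures over 2.5 days or 10 exposures over 5 days. Strain, sex, age and the time from the last exposure to tissue collection are not given in the sources used here, nor is it said that replicates were separate animals. A p-value here is therefore set against the scatter among these arrays, some of which may be technical. In whole brain fewer cells of a type and less RNA per cell cannot be told apart.

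Cytochrome P450 enzymes are haem proteins that insert an oxygen atom into their substrates with electrons from a reductase. Members of the Cyp1, Cyp2 and Cyp3 families oxidise drugs and other foreign compounds, above all in the liver, and Cyp2e1 is the main enzyme that oxidises halothane. Cyp4 enzymes hydroxylate fatty acids, and the remaining families build or break down sterols, steroids, retinoic acid and vitamin D. In brain these enzymes are known for the turnover of cholesterol, neurosteroids and retinoic acid rather than for bulk drug clearance.

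Of the 49 genes, 37 had a RefSeq promoter window on the rat build GRCr8, and the 250 bases before the start that the RefSeq table uses were searched on both strands. That start is the edge of the gene's RefSeq span for 21 of the 37 and lies inside it for 16. The motifs were GCGTG, the core of the aryl hydrocarbon receptor element, TATAAA, the TATA box, and AGGTCA, the hexamer bound by nuclear receptors. GCGTG was in 7 of the 37 windows (18.9%) against 25.9% of all 33469 windows. TATAAA was in 12 of 37 (32.4%) against 12.9% of all windows, and 9 of these 12 were Cyp2 genes. AGGTCA was in 13 of 37 (35.1%) against 14.1%. These are matches of letters and not binding sites. The 200 bases before the start are shown for 4 genes that the results return to, Cyp1b1, Cyp26b1 and Cyp51 with GCGTG and Cyp2e1 with TATAAA and AGGTCA; each is read 5′ to 3′ on the gene's own strand, and capitals mark the motifs or their reverse complements, no 2 of which overlap. The windows are chr6:21094365-21094564 (+ strand), chr4:118616177-118616376 (- strand), chr4:30991493-30991692 (+ strand) and chr1:205269767-205269966 (+ strand).
Cyp1b1: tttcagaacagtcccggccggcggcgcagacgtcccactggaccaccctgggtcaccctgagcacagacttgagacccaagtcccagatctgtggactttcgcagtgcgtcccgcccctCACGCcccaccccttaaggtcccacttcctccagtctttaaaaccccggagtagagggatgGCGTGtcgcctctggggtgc
Cyp26b1: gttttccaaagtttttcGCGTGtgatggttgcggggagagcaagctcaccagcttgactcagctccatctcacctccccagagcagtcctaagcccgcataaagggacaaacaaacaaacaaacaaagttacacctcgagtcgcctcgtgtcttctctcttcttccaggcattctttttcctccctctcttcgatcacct
Cyp51: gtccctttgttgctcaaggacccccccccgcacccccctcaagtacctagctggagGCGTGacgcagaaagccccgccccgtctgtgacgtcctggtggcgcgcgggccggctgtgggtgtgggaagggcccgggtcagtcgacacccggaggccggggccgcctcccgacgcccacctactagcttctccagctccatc
Cyp2e1: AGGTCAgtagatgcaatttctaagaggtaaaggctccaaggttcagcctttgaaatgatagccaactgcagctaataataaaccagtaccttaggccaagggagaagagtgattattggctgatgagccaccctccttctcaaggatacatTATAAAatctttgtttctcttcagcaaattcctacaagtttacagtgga
The Cyp1b1 window holds GCGTG 2 times, 1 of them as its reverse complement, beginning 81 and 20 bases before the start used. That start lies 638 bases inside the RefSeq span of Cyp1b1, so both matches are within the annotated gene, while the other 3 windows end at the edge of theirs. Cyp26b1 holds it 183 bases and Cyp51 144 bases before the start. The Cyp2e1 window holds no GCGTG, and its TATAAA begins 49 bases before the start.

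Many P450 probe sets were dim in brain. The floor was set at 16.5 intensity units, the 25th percentile of all table values, and a probe set was tested when it was above the floor on at least 3 of the 24 arrays. By this rule 60 of the 84 P450 probe sets (71.4%), for 39 genes, were tested, against 84.5% of the 8740 probe sets that are no array control. Above the floor on all 24 arrays were 31 P450 probe sets (36.9%), for 22 genes, against 58.8% of all. A further 15 were above it on no array and 9 on 1 or 2 arrays.

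By family, 5 of 8 Cyp1, 25 of 38 Cyp2, 6 of 7 Cyp3, 8 of 12 Cyp4 and 16 of 19 sterol, steroid and vitamin probe sets were tested. The 10 genes with no tested probe set were Cyp1a1, an inducible enzyme for aromatic hydrocarbons, Cyp2b3, Cyp2b12, Cyp2c7, Cyp2c12, Cyp3a2, Cyp4a3, Cyp4b1, Cyp4f5 and Cyp17a1, the steroid hydroxylase that makes androgen precursors. Cyp1a1 lay between 3.5 and 14.4 over its 12 controls and between 4.3 and 13 over its exposed arrays, below the floor on every array. A further 10 genes were tested through 1 or more probe sets while another probe set of the same gene was not. The number of P450 probe sets above the floor was 44 to 56 per control array (median 52), 48 to 52 after 5 exposures to halothane, 46 to 52 after 10, 50 to 51 after 5 exposures to isoflurane and 46 to 62 after 10. These ranges overlap, with 1 array, isoflurane 10 replicate 2, above every control.

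**Figure D1:**
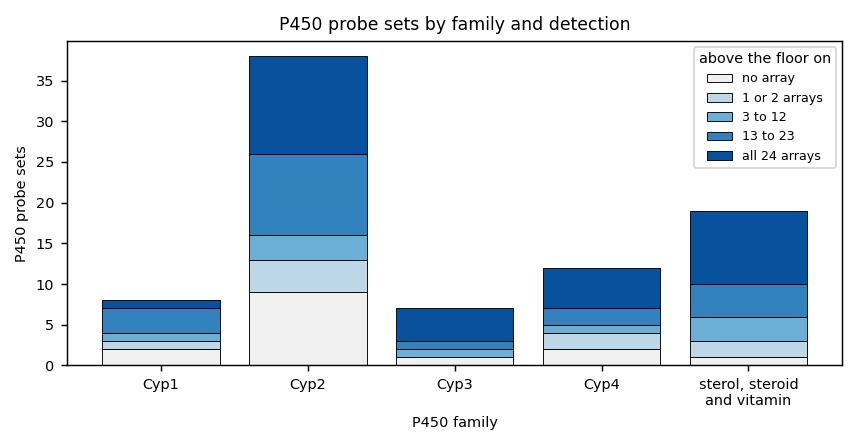
Number of P450 probe sets (y axis) in each family (x axis), with shades for the number of the 24 arrays on which the probe set was above the floor of 16.5. Cyp2 is the largest family with 38 probe sets, of which 12 were above the floor on all 24 arrays.

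The arrays had been brought to nearly the same trimmed mean, and their medians ran from 53.5 to 64.9 units. Brain markers were present on every array: 7 of 7 neuronal, 7 of 7 astrocyte and 6 of 6 oligodendrocyte genes were above the floor on all 24. Of 14 hepatocyte genes on the array 7 were too, while the liver enzymes Tat and Pck1 were above it on 1 and 2 arrays. Spike-in controls split the arrays into 9 with high and 15 with low levels, the high ones being controls 1, 3, 10, 11 and 12 and replicate 3 of every exposed group.

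Each comparison was made by limma in 1 fit over all 24 arrays, with p-values adjusted over the 7389 probe sets tested and a call at an adjusted p below 0.05. No P450 probe set was called in any of the 10 comparisons. A fold change is a difference of log2 intensity after values below the floor were set to it, so it understates differences of dim probe sets. The median 95% confidence interval of a P450 difference from control reached 0.52 log2 units to each side for 1 exposed group.

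After 5 exposures to halothane the P450 genes lay around the control level. Of 60 probe sets 28 were higher and 32 lower, with a median log2 fold change of -0.01, and the median over all probe sets tested was -0.01 too. None was called (0.0135% of all tested were), and 3 (5%) had an unadjusted p below 0.05, against 3.53% of all tested. Those with the lowest p were Cyp11a1, the cholesterol side-chain cleavage enzyme (-0.84), 1 Cyp2d4 probe set (1.35), 1 Cyp27a1 probe set (-0.38), 1 Cyp2e1 probe set (-0.47) and Cyp4f1 (0.34). All 5 had an adjusted p of 1. With an array left out the median ran from -0.07 to 0.03, and 24 to 38 of the 60 were higher.

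After 10 exposures to halothane more P450 probe sets were below than above control. Of 60, 15 (25%) were higher and 45 lower, against 43.8% higher over all tested, with a median of -0.22 against -0.03. Among the 31 above the floor on all arrays 4 (12.9%) were higher and 27 lower, against 46.35% higher of all probe sets above it on all arrays. None was called (0.0406% of all tested were), and 5 (8.33%) had an unadjusted p below 0.05, 1 higher and 4 lower, against 7.52% of all tested. By family the median was -0.07 for Cyp1, -0.17 for Cyp2, -0.25 for Cyp3, -0.09 for Cyp4 and -0.27 for the sterol, steroid and vitamin genes. Over the 60 it was -0.28 in the low spike-in arrays alone, -0.03 in the high ones alone and -0.12 without replicate 1 of that group. The lowest p belonged to Cyp26b1 (0.70, adjusted p 0.516), Cyp2a3 (-0.89, adjusted p 0.551), Cyp2b15 (-0.42), Cyp11a1 (-0.69) and 1 Cyp2b2 probe set (-0.33).

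After 5 exposures to isoflurane 24 of the 60 probe sets were higher and 36 lower, with a median of -0.06 against 0.01 over all tested. Without replicate 3 of that group the median was -0.00, and with any array left out 15 to 30 were higher. No P450 probe set reached an unadjusted p below 0.05, against 2.14% of all tested, and none was called (0% of all tested). The lowest p belonged to the fatty acid hydroxylase Cyp4f6 (0.76), Cyp1b1 (0.33), Cyp26b1 (0.50), Cyp2a3 (-0.55) and 1 Cyp51 probe set (-0.66), all with an adjusted p of 1.

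After 10 exposures to isoflurane the P450 differences ran from -1.31 to 0.77. Of 60, 17 (28.3%) were higher and 43 lower, against 49.5% higher over all tested, with a median of -0.15 against -0.00. Among the 31 above the floor on all arrays 5 (16.1%) were higher and 26 lower, against 49.7% higher of all probe sets above it on all arrays. None was called (0% of all tested), and the lowest adjusted p, 0.0526, belonged to Cyp4a1, which was at rank 3 by p among all 7389 probe sets and shared this adjusted p with the other 2. Unadjusted p-values below 0.05 were found for 10 probe sets, 3 higher and 7 lower, or 16.7% against 9.05% of all tested. The 5 with the lowest p were Cyp4a1 (-1.19), Cyp1b1 (0.62, adjusted p 0.302), Cyp2b2 (-1.31, adjusted p 0.37), Cyp2d2 (-0.71, adjusted p 0.382) and Cyp3a23-3a1 (-0.42, adjusted p 0.432). By family the median was -0.07 for Cyp1, -0.18 for Cyp2, -0.13 for Cyp3, -0.06 for Cyp4 and -0.23 for the sterol, steroid and vitamin genes. Without replicate 1 the median over the 60 was -0.08, and without replicate 2 it was -0.30. It was -0.22 in the low spike-in arrays alone and -0.22 in the high ones alone, where this group holds 1 array.

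With all 12 exposed arrays set against control, 16 of 60 P450 probe sets were higher and 44 lower, with a median of -0.09 against -0.01 over all tested. None was called (0% of all tested). At an unadjusted p below 0.05 there were 8, 3 higher and 5 lower, or 13.3% against 8.44%. The lowest p belonged to Cyp26b1 (0.52, adjusted p 0.361), Cyp11a1 (-0.64, adjusted p 0.366), Cyp1b1 (0.30, adjusted p 0.436), Cyp2a3 (-0.60, adjusted p 0.441) and Cyp2d2 (-0.42, adjusted p 0.455). These comparisons share the 12 controls, so their values are not independent of each other. With a replicate block, which sets only controls 1 to 3 against the exposed arrays, no P450 median was below control. The medians were then 0.17 and 0.03 after 5 and 10 exposures to halothane. They were 0.14 and 0.01 after 5 and 10 to isoflurane and 0.05 over all exposed, with 42, 31, 38, 30 and 39 of 60 higher. Over all tested the medians were 0.04, 0.01, 0.05, 0.04 and 0.04 in the same order. The P450 median after 10 exposures to isoflurane thus remained below that of all tested. The other P450 medians, including that after 10 exposures to halothane, lay above those of all tested. For the 31 P450 probe sets above the floor on all arrays, the mean log2 level per array ran from 6.28 to 7.00 in control (median 6.68). It ran from 6.30 to 6.57 after 10 exposures to halothane and from 6.33 to 6.69 after 10 to isoflurane. By this mean every exposed array of both groups lay within the control range.

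Blood markers were also low in the groups in which more P450 probe sets were low. The 5 tested blood genes had a median of -0.49 after 10 exposures to halothane and -0.40 after 10 to isoflurane, with 0 of 5 higher in either. Their mean log2 level was 6.10 to 6.66 on the control arrays, 5.84 to 5.86 after 10 exposures to halothane and 5.79 to 6.26 after 10 to isoflurane. The 12 tested hepatocyte genes had medians of -0.08 and -0.06, with mean levels of 5.02 to 5.65 in control, 5.07 to 5.18 and 5.00 to 5.60. The 6 tested choroid plexus and ependyma genes had medians of 0.45 and 0.37, and the 6 oligodendrocyte genes -0.24 and -0.01. The part of these cells in the P450 values was not tested.

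**Figure D2:**
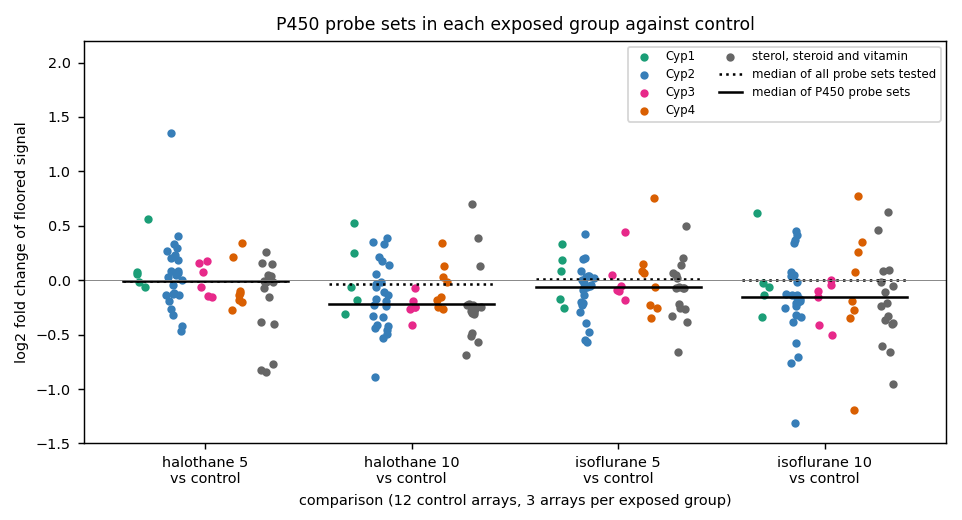
Log2 fold change of each of the 60 tested P450 probe sets (points, coloured by family) in each exposed group against the 12 control arrays; solid lines are the median of the P450 probe sets and dotted lines the median of all 7389 tested. After 10 exposures the solid lines lie at -0.22 for halothane and -0.15 for isoflurane, while the dotted lines stay near 0.

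The agents and exposure numbers were also compared directly, and no P450 probe set was called. For halothane against isoflurane after 5 exposures 1 P450 probe set had an unadjusted p below 0.05, against 2.98% of all tested (0.0135% called), and after 10 exposures 1, against 3.11% (0% called). For 10 against 5 exposures there was 1 for halothane, against 3.76% (0.0135% called), and 3 for isoflurane, against 3% (0% called). The interaction of agent and exposure number gave 1, against 2% (0% called). These shares of P450 probe sets are 1.67% where there was 1, each below the background in this fit. For 10 against 5 exposures to isoflurane the 3 are 5%, above the background of 3%. Among these 3 the Cyp4a1 probe set X07259cds_s_at had the lowest p of all 7389 tested (limma adjusted p 0.506). With a replicate block the members were 3 for halothane against isoflurane at 5 (5%, against 4.71% of all tested) and 3 at 10 (5% against 4.34%), 5 for 10 against 5 exposures to halothane (8.33% against 5.9%) and 2 to isoflurane (3.33% against 4.45%), and 1 in the interaction, with none called.

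The lowest p in these direct comparisons named few further genes. Between the agents after 5 exposures they were Cyp2d4 (1.58), Cyp4f6 (-0.96) and Cyp2c22 (-0.85), signed as halothane minus isoflurane, and after 10 exposures Cyp4a1 (0.94), Cyp4f6 (-0.92) and Cyp1b1 (-0.36). Between 10 and 5 exposures to halothane they were Cyp2c23 (-0.42), Cyp2b15 (-0.48) and Cyp3a9 (-0.59), and to isoflurane Cyp4a1 (-1.34, adjusted p 0.506), Cyp2b2 (-1.28) and Cyp2c11 (0.92). In the interaction they were Cyp4a1 (1.21), Cyp2c11 (-1.02) and Cyp2d4 (-1.53). All but that of Cyp4a1 in isoflurane 10 against 5 had an adjusted p of 1.

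**Figure D3:**
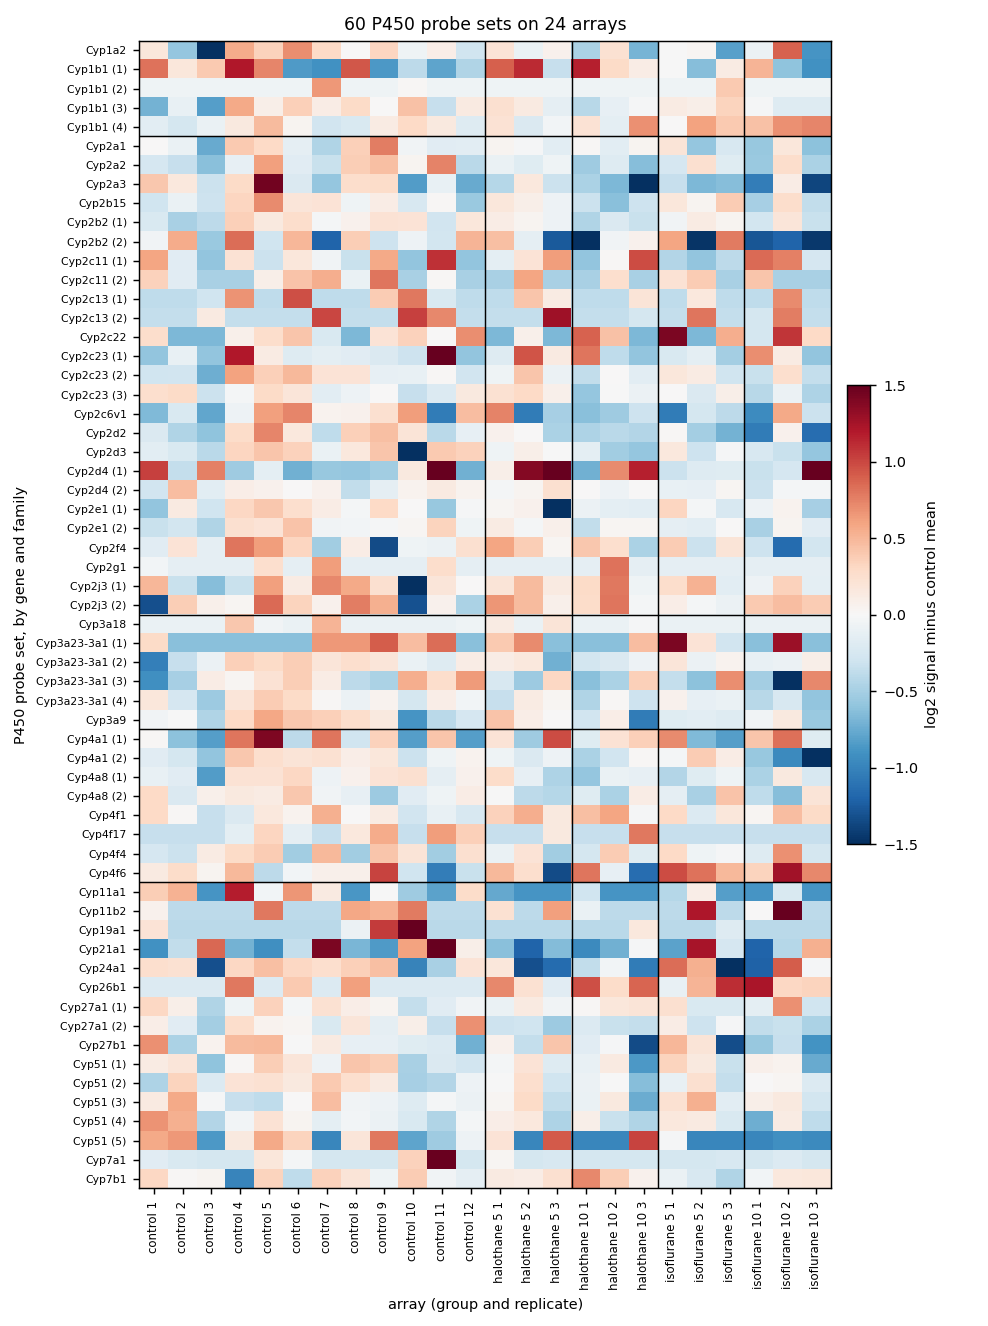
Log2 signal minus the mean of the 12 control arrays for the 60 tested P450 probe sets (rows, grouped by family, numbers in brackets separating probe sets of 1 gene) on the 24 arrays (columns); red is above and blue below the control mean, and colours saturate at 1.5 either way. Single controls stand out in many rows, as in the Cyp7a1 and Cyp19a1 rows, and the second Cyp4a1 row and the second Cyp2b2 row are blue on all 3 arrays after 10 exposures to isoflurane.

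In the Cyp1 family, which oxidises aromatic compounds and is driven by the aryl hydrocarbon receptor, 1 Cyp1b1 probe set stood apart after 10 exposures to isoflurane. Cyp1b1, which also oxidises oestradiol, is read by 4 probe sets. That named rc_AI176856_at read 27.2, 32.2 and 33.4 after 10 exposures to isoflurane, against controls with a lowest value of 14.5, a median of 19.65 and a highest of 28. Of the 3 arrays 2 were above every control and 1 was within their range. It read 20.2, 30.4 and 26.3 after 5 exposures to isoflurane, 23.3, 18.2 and 32.3 after 10 to halothane and 23.3, 17.3 and 19.5 after 5 to halothane. Its log2 fold change after 10 exposures to isoflurane was 0.62 ± 0.17 (SE; n = 3 against 12; limma adjusted p 0.302), 0.56 in the low and 0.74 in the high spike-in arrays alone.

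The other Cyp1b1 probe sets did not show this difference. The X83867cds_s_at probe set, above the floor on all arrays, read 38.7, 34.4 and 34.2 after 10 exposures to isoflurane and 22.1 to 58.1 in control (-0.13 ± 0.23 SE). U09540_at read 44, 20.3 and 15.2 there against 16.1 to 70.9 in control, and the remaining one was above the floor on 3 arrays. Cyp1a2, a hepatic enzyme for aromatic amines, was tested through 1 of its 3 probe sets, at 51.7 ± 16.9 (SD, n = 12) in control. Its log2 fold changes lay between -0.31 and 0.06, and of its 12 exposed arrays 1, at 89.7 after 10 exposures to isoflurane, lay outside the control range of 16.4 to 78.6.

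In the Cyp2 family, the largest of the drug-oxidising families, Cyp2e1 was of interest because halothane is its substrate. Its probe set M20131cds_s_at read 73.6 to 147.2 in control with a median of 116. After 10 exposures it read 104.5, 100.3 and 99.5 with halothane and 105.3, 115.1 and 78.5 with isoflurane, all within the control range. After 5 exposures to halothane it read 113.2, 116.6 and 39.6, so that 1 array lay below every control. The log2 fold change there was -0.47 ± 0.25 (SE, adjusted p 1) and became 0.05 without that array, replicate 3.

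The same array did not stand apart on the other Cyp2e1 probe set. S48325_s_at read 114.1, 102.8 and 110.9 after 5 exposures to halothane, against 76.9 to 140.7 in control. Its 95% confidence intervals were -0.44 to 0.23 after 10 exposures to halothane and -0.54 to 0.13 after 10 to isoflurane, while those of M20131cds_s_at were -0.65 to 0.39 and -0.70 to 0.34. The third Cyp2e1 probe set was below the floor on every array, at most 10.9 in control.

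Other Cyp2 genes read steady signals on some probe sets and scattered ones on others. Cyp2d4, the main brain member of the debrisoquine hydroxylases, read 412.4 to 733.3 in control on 1 probe set, with log2 fold changes between -0.13 and 0.08. Its other probe set, U48220_at, read 28.9, 70.2 and 161.9 after 5 exposures to halothane. Its controls ran from 14.9 to 124.4 with a median of 20.05, so 1 exposed array was above them all. The highest control, replicate 11, and the highest exposed array were both high spike-in arrays, and the difference of 1.35 ± 0.55 (SE, adjusted p 1) was 1.98 without replicate 1 of the exposed group and 0.73 without replicate 3.

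Cyp2a1, a testosterone hydroxylase, read 163.2 to 470.3 in control, and its fold changes were -0.34 to -0.03. Cyp2b15 read 93.5, 75.5 and 94.5 after 10 exposures to halothane against 79.7 to 191.1 in control, with 1 of 3 arrays below the controls (-0.42 ± 0.20 SE, adjusted p 0.657). Cyp2a3, an enzyme of the nasal and lung lining, read 41.8, 36.4 and 20.4 after 10 exposures to halothane and 28.5, 63.2 and 22.4 after 10 to isoflurane. Its controls ran from 32.5 to 158.6, so 1 and 2 of these arrays lay below them. The differences were -0.89 ± 0.36 and -0.77 ± 0.36 (SE).

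Cyp2b2, the phenobarbital-inducible enzyme, had 2 tested probe sets that behaved unlike each other. K01721mRNA_s_at read 20.4, 21.7 and 18.3 after 10 exposures to isoflurane, against 21.6 to 89.1 in control with a median of 47.45. That put 2 of 3 arrays below every control, and 1 array of each of the other exposed groups was below them too (20.7, 11.2 and 18). J00728cds_f_at read 19.1, 26.3 and 18.4 on the same isoflurane arrays, inside its control range of 11.9 to 29.6. The fold changes were -1.31 ± 0.44 and -0.14 ± 0.16 (SE).

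Cyp2d2, another debrisoquine hydroxylase, read 59.3, 128.9 and 55.6 after 10 exposures to isoflurane against 81 to 204.1 in control, so 2 of 3 arrays were below the controls (-0.71 ± 0.26 SE, adjusted p 0.382). Cyp2c11, the male-specific hepatic steroid hydroxylase, read 44.6, 41.8 and 20.9 on those arrays and 18.3, 7.9 and 18.9 after 5 exposures to isoflurane. Those are values of J02657_s_at, whose controls spanned 11.7 to 53.1 and covered all of these but 1. The other tested Cyp2c11 probe set, M18363cds_s_at, had a lower mean after 10 exposures than after 5, with 30.8, 13 and 9 against 26.9, 30 and 13.5, and controls from 9.8 to 40.5. Cyp2c23, an arachidonic acid epoxygenase, read 62.3, 92.7 and 88 on rc_AI169372_g_at after 10 exposures to halothane. After 5 it read 109.1, 114.6 and 98 there, so these groups did not overlap. The controls of this probe set, at 73.1 to 114, lay across both. On X55446mRNA_at the values were 53.1, 68.9 and 61.4 after 10 and 65.7, 91.7 and 64.3 after 5, which overlapped. On U04733_s_at they were 43.3, 19.1 and 15.3 against 21.8, 48 and 27.3, which overlapped too. Cyp2c22, for which 17 arrays were above the floor, read 69.8, 8.4 and 38.5 after 5 exposures to isoflurane and 15.5, 27.8 and 9.6 after 5 to halothane, against 11.9 to 42.6 in control.

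The remaining tested Cyp2 genes, Cyp2a2, Cyp2c6v1, Cyp2c13, Cyp2d3, Cyp2f4, Cyp2g1 and Cyp2j3, and Cyp4f4 and Cyp4f17 of the Cyp4 family had no unadjusted p below 0.05 against control in any of the 5 comparisons.

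The Cyp3 genes, steroid and drug hydroxylases, were tested through Cyp3a23-3a1, Cyp3a9 and Cyp3a18. After 10 exposures to halothane 0 of the 6 tested Cyp3 probe sets were higher than control, with a median of -0.25, and after 10 to isoflurane 1 was higher. Cyp3a23-3a1 on X64401cds_s_at read 88, 99.7 and 78.2 after 10 exposures to isoflurane against 80.5 to 153.5 in control, with 1 of 3 arrays below the controls (-0.42 ± 0.16 SE). The other 3 tested probe sets of this gene gave 0.00, -0.04 and -0.50 there. Cyp3a9 read 71.8, 94.1 and 42.5 after 10 exposures to halothane against 47.6 to 131.2 in control (-0.41 ± 0.25 SE, adjusted p 0.718), with 1 array below the controls. Cyp3a18 was above the floor on 7 arrays.

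In the Cyp4 family, the omega-hydroxylases of fatty acids, Cyp4a1 gave the lowest p of all P450 genes. Its gene is a textbook target of the fatty acid receptor PPAR alpha in liver. The probe set X07259cds_s_at read 65.5, 49.9 and 23.3 after 10 exposures to isoflurane, against controls with a lowest value of 64.3, a median of 102.1 and a highest of 128. Of the 3 arrays 2 were below every control and the third was just above the lowest control. It read 94.7, 125.9 and 104.2 after 5 exposures to isoflurane, 69.5, 79.5 and 97.9 after 10 to halothane and 92.7, 83.2 and 91.6 after 5 to halothane, all inside the control range.

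The log2 fold change of this probe set was -1.19 ± 0.23 (SE; n = 3 against 12; 95% confidence interval -1.66 to -0.73), with a limma p of 2.14e-05 and an adjusted p of 0.0526, above the threshold. It was called under 5 of 14 other settings, and over all 14 its adjusted p ran from 0.0329 to 0.24. Leaving out replicate 1 gave -1.51 (adjusted p 0.01) and leaving out replicate 3 gave -0.76 (adjusted p 0.218). Without control 3 the adjusted p was 0.019. In the low spike-in arrays alone the difference was -0.91, and in the high ones, where the group holds 1 array, -1.84. Against 5 exposures to isoflurane the difference was -1.34 ± 0.28 (SE), with groups that did not overlap.

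The other Cyp4a1 probe sets did not read lower on these arrays. M57718mRNA_s_at, above the floor on 20 arrays, read 39.1, 51.9 and 25.9 after 10 exposures to isoflurane against 8.6 to 77.3 in control (0.35 ± 0.42 SE). Its interval, -0.52 to 1.22, does not reach -1.19. The remaining Cyp4a1 probe set was above the floor on 2 arrays and was not tested. The deposited table does not say which part of the transcript each one reads.

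Among the other Cyp4 genes, Cyp4a8 read 74.2 to 164.2 and 58 to 111.6 in control on its 2 probe sets, and after 10 exposures to isoflurane the latter probe set read 64.6, 54.3 and 96.4, with 1 array below the controls. Cyp4f6, a leukotriene hydroxylase, read 93.3, 178 and 122.5 after 10 exposures to isoflurane and 146.4, 130.4 and 104.1 after 5, against 103.8, 88.3 and 29.3 after 5 to halothane. Controls ran from 36.2 to 150.1 and covered all but 2 of these. Its isoflurane differences were 0.76 and 0.77 ± 0.37 (SE; adjusted p 1 and 0.548). Cyp4f1 read 57.9, 66.7 and 50.6 after 5 and 62.5, 69.1 and 45.1 after 10 exposures to halothane against 36 to 66.3 in control, a difference of 0.34 ± 0.19 (SE) both times.

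**Figure D4:**
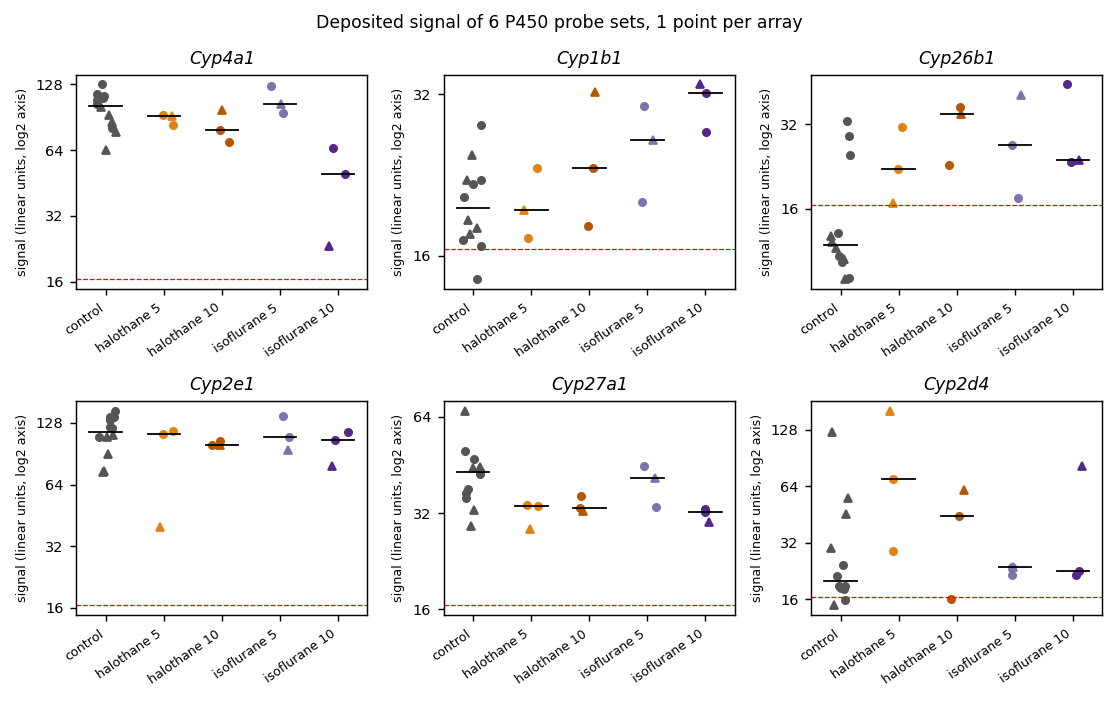
Deposited signal (linear units on a log2 axis) of 6 P450 probe sets by group, 1 point per array; circles are low and triangles high spike-in arrays, black bars are group medians and the dashed line is the floor of 16.5. The probe sets are the Cyp4a1, Cyp1b1, Cyp26b1, Cyp2e1, Cyp27a1 and Cyp2d4 ones described by array in the text; Cyp4a1 is low after 10 exposures to isoflurane, at 65.5, 49.9 and 23.3.

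Of the sterol, steroid and vitamin families, Cyp51 was read by 5 probe sets, 4 of them above the floor on all arrays. It removes the 14-alpha-methyl group of lanosterol in cholesterol synthesis, which the brain runs for itself. Its U17697_s_at probe set read 301.1 to 560.2 in control and 401, 425.9 and 273.8 after 10 exposures to halothane, with 1 array below the controls. All 5 Cyp51 probe sets were lower than control there, by -0.31 to -0.23 with standard errors of 0.19 to 0.42, and none had an unadjusted p below 0.05. After 10 exposures to isoflurane the same 5 gave -0.95 to -0.01; the -0.95 came from rc_AI230255_at, above the floor on 17 arrays, at 9.9, 17.1 and 16.8 against 9.7 to 56.4 in control. Lss, the enzyme just upstream of Cyp51 in sterol synthesis, gave -0.50 and -0.18 in these comparisons, and Sqle, a step earlier, -0.10 and 0.17.

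Cyp27a1 and Cyp7b1 hydroxylate cholesterol derivatives on the way to oxysterols and bile acids. Cyp27a1 on Y07534cds_s_at read 33.6, 33.9 and 28.6 after 5 exposures to halothane, 36.1, 33.2 and 32.5 after 10, and 32.3, 33 and 30.1 after 10 to isoflurane. Its controls ran from 29.2 to 67 with a median of 42.9, so only the 28.6 was below them. The differences were -0.38, -0.30 and -0.39 ± 0.18 (SE), while its other probe set gave -0.01, 0.13 and 0.08. Cyp7b1 read 139.1, 109.4 and 88.4 after 10 exposures to halothane against 42.5 to 110.1 in control (0.39 ± 0.21 SE, adjusted p 0.693).

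Cyp11a1, which starts steroid synthesis from cholesterol, was tested on 17 arrays above the floor. It read 17.8, 15.2 and 13.7 after 5 and 24.6, 15.8 and 13.3 after 10 exposures to halothane, against 14.4 to 68.7 in control with a median of 31.75. The exposed values lay at the low end of the controls, and 1 array of each group was below them. Over all exposed arrays 3 of 12 were below every control (-0.64 ± 0.21 SE, adjusted p 0.366), and 6 of those 12 values were under the floor, which limits the fold.

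Cyp26b1, the retinoic acid hydroxylase of brain, was above every control on 4 of the 12 exposed arrays. It was above the floor on 15 arrays. Its controls ran from 9 to 32.8 with a median of 11.9, and only 3 of the 12 were above the floor. It read 36.9, 22.9 and 34.7 after 10 exposures to halothane, 44.4, 23.5 and 23.9 after 10 to isoflurane, 17.5, 26.9 and 40.7 after 5 to isoflurane and 31.2, 22.2 and 16.8 after 5 to halothane. All 12 exposed arrays were above the floor and those above every control came from 3 of the 4 exposed groups.

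The Cyp26b1 difference over all exposed arrays was 0.52 ± 0.17 (SE, limma adjusted p 0.361), and after 10 exposures to halothane 0.70 ± 0.26 (adjusted p 0.516). It was 0.37 in the low spike-in arrays, which hold the 3 controls above the floor, and 0.73 in the high ones. There every control is at the floor and each exposed group has 1 array, so the probe set has no spread of its own and its p is not read. With most controls at the floor, the size of the fold depends on where the floor is put. At a floor of 5.5, the 10th percentile, it was 0.96.

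Further steroid and vitamin genes were variable among controls. Cyp24a1, the vitamin D hydroxylase, read 82.1, 29.3 and 32.7 after 5 exposures to halothane against 29.2 to 100.1 in control, and Cyp21a1, the adrenal 21-hydroxylase, 24.5, 15.1 and 24.2 against 20 to 133.9. Cyp19a1, the aromatase that makes oestradiol, was above the floor on 6 arrays, with 1 control at 88.3 and the median control at 13.95. Cyp7a1, Cyp11b2 and Cyp27b1 gave no unadjusted p below 0.05 against control.

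Genes read by several probe sets gave a check of how well P450 signals follow each other across the 24 arrays. In all, 22 pairs of probe sets from 11 genes had both members above the floor on at least 18 arrays. The 6 Cyp51 pairs had Pearson's r from 0.353 to 0.682 and Spearman's rho from 0.432 to 0.688. Of these, 3 had an adjusted permutation p below 0.05 (lowest 0.00638, over the 22 pairs; 100000 resamples). Without the 2 arrays farthest from the median the 6 gave r from 0.246 to 0.697.

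The Cyp51 relation was not seen within the 15 low spike-in arrays, where r ran from -0.158 to 0.276. In the 9 high ones it ran from -0.0569 to 0.686. The other 16 pairs, from 10 genes, had r from -0.204 to 0.503 with a median of 0.133, and none had an adjusted permutation p below 0.05 (lowest 0.088). Among them r was 0.116 for Cyp2e1 (rho 0.243, adjusted permutation p 0.701 and 0.367), 0.118 for Cyp4a1 (rho 0.142, adjusted permutation p 0.701 and 0.654) and -0.204 to 0.0785 for the 3 Cyp1b1 pairs. In the low spike-in arrays alone r was 0.593, 0.734 and 0.587 for the Cyp3a23-3a1 pairs and 0.524 for the Cyp2e1 pair. In the high ones alone it was 0.845, -0.602 and -0.443 for the Cyp3a23-3a1 pairs and -0.152 for Cyp2e1. For Cyp4a1 the low and high arrays gave 0.0121 and 0.0796.

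**Figure D5:**
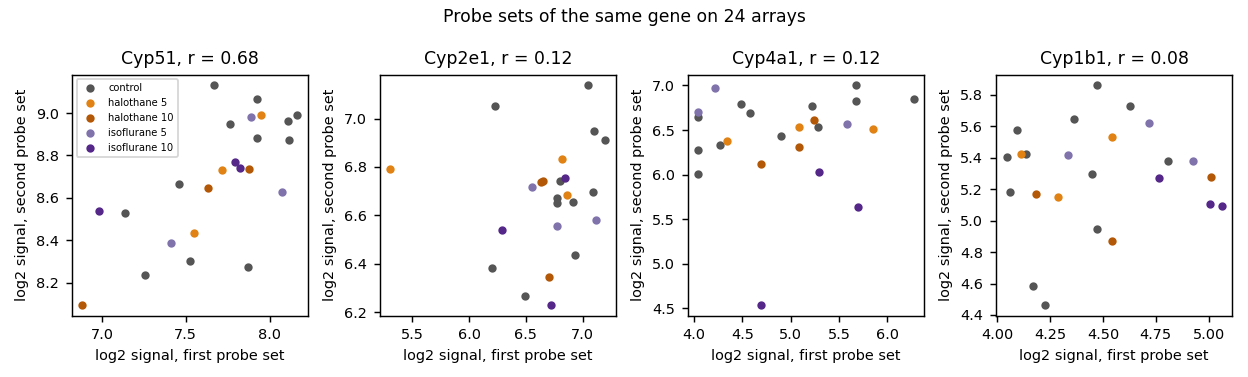
Log2 signal of 2 probe sets of the same gene on the 24 arrays (points, coloured by group), for the pair with the highest r of Cyp51, Cyp2e1, Cyp4a1 and Cyp1b1. The Cyp51 pair has r = 0.682 and the others 0.116, 0.118 and 0.0785.

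The proteins that serve the P450 enzymes were measured on the same arrays, and none of their genes was called against control in the 5 comparisons. Of the redox partners and haem enzymes 13 were tested; after 10 exposures to halothane 8 were higher and after 10 to isoflurane 7, with medians of 0.03 and 0.02 and 2 genes at an unadjusted p below 0.05 in each. After halothane these 2 were Ppox (0.78 ± 0.22 SE, limma adjusted p 0.272) and Blvra (-0.30 ± 0.13 SE). After isoflurane they were Pgrmc1 (0.43 ± 0.19 SE) and Blvra (-0.29 ± 0.13 SE). Por, the reductase that feeds electrons to the microsomal P450s, was at 344.2 ± 32.5 (SD, n = 12) in control. It gave -0.15 ± 0.10 and -0.06 ± 0.10 (SE) after 10 exposures to halothane and to isoflurane. Hmox1, the inducible enzyme of haem breakdown, gave -0.02 and 0.09.

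Of the regulators of P450 genes 20 were tested, and 3 were higher after 10 exposures to halothane (median -0.17) and 6 after 10 to isoflurane (median -0.10), with 4 and 2 at an unadjusted p below 0.05. Ahr, the receptor that acts on Cyp1 genes, gave -0.28 ± 0.16 and -0.33 ± 0.16 (SE), and Ppara, the receptor that acts on Cyp4a genes, -0.37 ± 0.17 and -0.20 ± 0.17. Nfe2l2, the oxidative stress regulator, was at 31.9 ± 9.23 (SD, n = 12) in control and 61.4 ± 2.81 (SD, n = 3) after 10 exposures to halothane, a difference of 0.99 ± 0.25 (SE, limma adjusted p 0.224).

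Of the steroid and sterol partners 15 were tested, with 7 higher and medians of -0.05 and -0.02 in the same comparisons and 2 at an unadjusted p below 0.05 in each. Of the fatty acid partners 15 were tested, with 5 and 6 higher, medians of -0.09 and -0.05 and again 2 at an unadjusted p below 0.05 in each. Plin2, a lipid droplet coat protein and another PPAR alpha target, was at 21.1 ± 3.6 (SD, n = 12) in control and 40 ± 13.2 (SD, n = 3) after 10 exposures to isoflurane. Its difference of 0.87 ± 0.17 (SE, limma adjusted p 0.0597) was opposite in sign to that of the Cyp4a1 probe set X07259cds_s_at. It had the same sign as that of the other tested Cyp4a1 probe set, M57718mRNA_s_at. Ptgs1, a prostaglandin synthase, gave -1.04 ± 0.28 there (adjusted p 0.291). Of the marker genes, the hepatocyte gene Apob gave -1.01 ± 0.25 (limma adjusted p 0.224) after 10 exposures to halothane. Igf2r, from the choroid plexus list, gave 1.24 ± 0.34 and 1.33 ± 0.34 (limma adjusted p 0.244 and 0.281) after 10 exposures to halothane and to isoflurane.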

How the data were processed

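Total RNA of whole rat brain from 24 samples had been read on a 1-colour oligonucleotide array. The authors deposited 1 linear intensity per probe set and array, scaled so that all arrays have nearly the same trimmed mean; the summary software and detection calls are not given in the sources used here. Gene symbols came from the platform annotation. The values were raised to a floor of 16.5, their 25th percentile, and taken to log2, and a probe set was tested when above the floor on at least 3 arrays. All 5 groups were fitted together with lmFit and eBayes with an intensity trend (limma 3.58.1, R 4.3.3), without a replicate block, and p-values were adjusted by the Benjamini-Hochberg method over all 7389 probe sets tested. The deviations of same-numbered arrays correlated above 0.1 for all 3 numbers in halothane 10 with isoflurane 10 and isoflurane 10 with isoflurane 5. Number 3 is a high spike-in array in every exposed group, so this does not separate pairing from spike-in level. The replicate block is given as an alternative, and the labels state no pairing. The number of arrays limits the precision. The fit was tested on simulated data.

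The P450 genes, the pathway lists and the marker lists were chosen with earlier results of these data known. The text names, in each comparison, the P450 probe sets of lowest p (5 against control, 3 between exposed groups), in each family the 3 with the highest mean signal, Cyp2e1 and Cyp4a1, and genes with several probe sets where these differ. Of the lists it names the 3 genes of lowest p after 10 exposures to each agent. Ppox, Pgrmc1 and Blvra were added for their unadjusted p within their list. Por, Hmox1, Ahr, Ppara, Lss, Sqle, Cyp7b1, Cyp19a1, Cyp21a1 and Cyp24a1 were chosen for their role after their values were seen. Correlations between probe sets of 1 gene used permutation tests (SciPy 1.17.1, NumPy 2.4.6). Promoter sequences are RefSeq's. Another floor, filter, normalization, weighting or choice of arrays was tried, as was leaving out each array. Probe sets with several gene symbols (13 for P450 genes) were not named.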

Additional observations from a re-analysis of the deposited data

How the results depend on the processing

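The results were recomputed under 14 other settings and with each of 24 arrays left out. Of 1487 values of named probe sets, 1472 kept their sign and their side of the threshold. None of these probe sets was called in the main fit, so there was no call to lose. Leaving out an array of a group outside a comparison cannot change its fold change. The share therefore does not measure stability. After 10 exposures to isoflurane the count of called P450 probe sets was 1, Cyp4a1, of 4 called in all under quantile normalization, 4 under median centring, 2 with a strict filter on low values, 4 with no intensity trend and 3 with a block for spike-in level, and 0 to 1 with an array left out (1 without control 3 or without replicate 1 of that group). Against 5 exposures to isoflurane it was 0 to 1 with an array left out (1 without isoflurane 10 replicate 1). In the high spike-in arrays alone each exposed group has 1 array. There 1 P450 probe set, Cyp26b1, was called in halothane 10 against control (of 48 called in all), isoflurane 5 against control (of 22), all exposed against control (of 47), halothane against isoflurane at 5 (of 53), 10 against 5 exposures to halothane (of 52) and to isoflurane (of 19), and the interaction (of 30). All 5 controls of Cyp26b1 are at the floor there and lend it no spread, so these calls follow from the floor and say nothing about its stability. In the same arrays the Cyp2c11 interaction was 0.211 in place of -1.02, and with an array left out the Cyp2e1 M20131cds_s_at difference after 5 exposures to halothane ran from -0.73 to 0.047 (the latter without its replicate 3); the cause was not tested.

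Deviations of same-numbered arrays from their group means were correlated between groups. Arrays of different numbers were not compared. Number 3 is also a high spike-in array in every exposed group, so these correlations cannot tell pairing by number from spike-in level. Between control and exposed arrays 4 of 12 pairs correlated above 0.1, all of number 3, and between exposed groups 16 of 18 did (0.087 to 0.52); replicate 3 is a high spike-in array in control and every exposed group. All 3 numbers did so for halothane 10 with isoflurane 10 and isoflurane 10 with isoflurane 5, and 2 of 3 for the other direct comparisons. With the number as a replicate block 0 P450 probe sets were called in any comparison, against 15 of all tested for halothane 10, 27 for all exposed and 0 for the others. The 5 P450 medians against control, with only controls 1 to 3 compared, were 0.01 to 0.17, all positive. Those of all tested were 0.01 to 0.05, all positive too. Cyp2b2 J00728cds_f_at after 10 exposures to halothane (0.0351) and Cyp2d2 over all exposed (0.0022) turned positive; the cause was not tested. The number of P450 probe sets tested was 76 with a floor at the 10th percentile, 47 at the 40th and 61 after quantile normalization; Cyp1b1 rc_AI176856_at could not be fitted with the floor at the 40th or with the strict filter. With 3 arrays in a group, a difference from control under about 0.52 log2 units lay within the median confidence interval.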
